A study of Mus musculus with 45 samples.

Results

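The 10 genes described here regulate how epithelial or mesenchymal a cell is. 6 are inducers of the mesenchymal state, Snai1, Snai2, Twist1, Twist2, Zeb1 and Zeb2, and 4 are keepers of the epithelial state, Ovol1, Grhl2, Esrp1 and Esrp2. Each was represented by the probe set with the highest mean among those carrying its symbol alone, and each had 1 such probe set. They are 10 of 18820 genes with a single-symbol probe set, and all 10 were among the 12123 genes that passed the filter on low values, which kept genes above the median of the whole table (5.67 on the log2 scale) in at least 8 tumours.

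Expression was measured on single-colour Affymetrix arrays in 45 mouse mammary tumours. All tumours grew from non-irradiated BALB/c mammary fragments null for Trp53, the gene of the tumour suppressor p53, grafted into female BALB/c hosts, wild type and 10 weeks old, at inguinal fat pads whose own epithelium had been cleared at 3 weeks. The hosts had been sham-irradiated (18 tumours) or irradiated with silicon ions at 10 cGy (9 tumours), 30 cGy (10 tumours) or 80 cGy (8 tumours) 3 days before transplantation, so that 27 tumours came from irradiated hosts. Tumours were removed at 1 cm3 and total RNA was taken from the frozen tissue, with no sorting stated, so tumour cells and host stroma were measured together. All donor tissue lacked p53 in every group, the sham group included. The comparison asks whether tumours from irradiated hosts had another balance of these regulators. Nothing in the labels ties tumours to separate donors, so the p-values measure the spread between these tumours. 8 stems of the sample codes are each shared by 2 tumours of a group, and what a stem stands for is not stated. The main fits treated all 45 tumours as separate, which such pairs may not be. With the stem as a random block (estimated correlation 0.24) no member was called between host groups.

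Epithelial-mesenchymal transition is the loss of cell junctions and polarity by epithelial cells and their gain of motile, fibroblast-like traits. Snai, Twist and Zeb proteins are DNA-binding factors; Snai and Zeb proteins bind E-box sequences in the promoters of junction genes such as Cdh1, which encodes E-cadherin, and repress them. Grhl2 and Ovol1 are transcription factors that maintain epithelial gene expression, and in other systems Grhl2 and Zeb1 repress each other. Esrp1 and Esrp2 are RNA-binding proteins that enforce the epithelial splice forms of genes such as Fgfr2 and Cd44. MicroRNAs of the miR-200 family repress Zeb1 and Zeb2, and Zeb proteins repress the miR-200 genes, a double-negative loop. In the mammary gland Snai2 is also known as a factor of basal cells, and Zeb2, Twist and Snai1 are known in stromal cells as well as in tumour cells.

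The sequences through which these regulators are known to act are shown to make the known links between them visible, and of the hairpins below only Mir200a and Mir200b were tested. The mature RNAs from the 3p arms of the miR-200 family, from RefSeq (GRCm38.p6), carry 1 of 2 seeds (bases 2 to 8, in capitals). The seed is the stretch that pairs with a target such as the Zeb1 and Zeb2 messages. The first 3 share the seed AAUACUG, and the next 2 share AACACUG. The last, miR-205-5p, is no member of that family, also represses Zeb1 and Zeb2, and has the seed CCUUCAU.
miR-200b-3p (chr4:156055685-156055706, minus strand): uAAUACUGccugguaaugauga
miR-200c-3p (chr6:124718324-124718346, minus strand): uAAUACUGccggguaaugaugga
miR-429-3p (chr4:156053916-156053937, minus strand): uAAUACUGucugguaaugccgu
miR-200a-3p (chr4:156054911-156054932, minus strand): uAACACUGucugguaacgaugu
miR-141-3p (chr6:124717917-124717938, minus strand): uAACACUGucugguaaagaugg
miR-205-5p (chr1:193507503-193507524, minus strand): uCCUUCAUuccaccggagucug

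The promoters of Rab25, Crb3 and Snai1 itself show the E-box searched for, CAGGTG or its reverse complement CACCTG, in capitals. Rab25 and Crb3 had negative slopes on Zeb1 below, and Rab25 was also among the genes nearest to Esrp1. Each window runs 5′ to 3′ on the gene's own strand, 250 bases before to 50 after the start in RefSeq (GRCm38.p6).
Rab25 (chr3:88548230-88548529, minus strand): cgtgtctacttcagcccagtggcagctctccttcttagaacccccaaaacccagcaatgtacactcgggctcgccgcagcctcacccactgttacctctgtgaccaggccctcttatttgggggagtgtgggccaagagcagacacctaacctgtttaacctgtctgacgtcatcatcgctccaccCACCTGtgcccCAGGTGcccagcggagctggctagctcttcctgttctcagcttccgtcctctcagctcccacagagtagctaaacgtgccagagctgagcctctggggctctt
Crb3 (chr17:57061951-57062250, plus strand): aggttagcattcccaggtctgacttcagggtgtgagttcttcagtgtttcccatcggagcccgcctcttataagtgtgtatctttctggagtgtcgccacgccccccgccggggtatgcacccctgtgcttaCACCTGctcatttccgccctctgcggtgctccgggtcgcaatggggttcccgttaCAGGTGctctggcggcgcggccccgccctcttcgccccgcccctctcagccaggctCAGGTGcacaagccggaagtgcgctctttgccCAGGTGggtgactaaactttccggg
Snai1 (chr2:167537945-167538244, plus strand): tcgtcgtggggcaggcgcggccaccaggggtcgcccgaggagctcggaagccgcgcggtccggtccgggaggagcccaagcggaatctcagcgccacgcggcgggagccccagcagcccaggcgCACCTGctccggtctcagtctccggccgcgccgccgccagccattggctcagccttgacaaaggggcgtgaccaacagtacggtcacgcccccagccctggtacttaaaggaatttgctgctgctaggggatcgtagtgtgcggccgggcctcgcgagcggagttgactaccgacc

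Of all 32851 promoter windows in the table, 20.2% held the E-box at least once and 2.88% at least 2 times. List genes with a window on chr18 were left out of the counts below, while the 32851 windows include that chromosome. Among the regulators, 4 inducers and no keeper had counted windows. The letters were in 1 of their 7 windows (14.3%), that of Snai1, and in 0 of those of Twist1, Twist2 and Zeb2. Rab25 held it 2 times, Crb3 4 times in each of its 2 overlapping windows and Snai1 1 time. No counted window of the epithelial genes below held it more often than those of Crb3. Of 30 epithelial genes, a list drawn up partly from known E-box targets, 19 had a counted window. Of these 16 held the letters, and 20 of their 24 windows did (83.3%). Of 20 mesenchymal genes, 10 had a counted window and 1, Sparc, held the letters. A match describes the sequence and does not show binding.

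The 10 regulators differed widely between tumours, and each ranked in the upper part of the table by SD. By SD over the 45 tumours Esrp1 ranked 36th of the 12123 genes, Grhl2 287th, Esrp2 385th, Twist2 500th, Ovol1 557th, Snai2 732nd, Snai1 771st, Zeb1 968th, Zeb2 1928th and Twist1 2854th. The spread lay within every host group, as the plot of the members by host group shows. Array medians lay between 5.48 and 5.80.

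**Figure D1:**
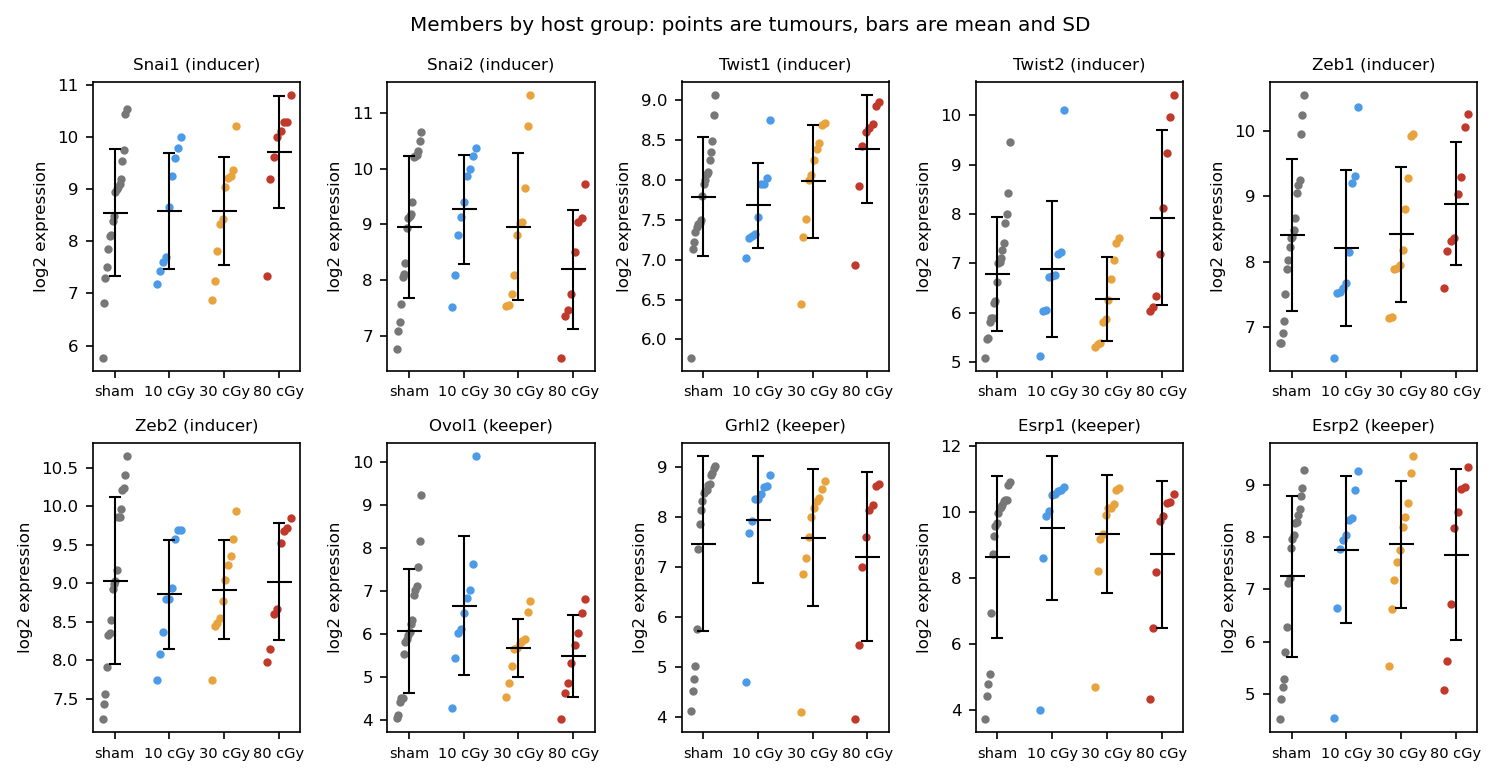
Log2 expression (vertical axis) of the 10 regulators in tumours from sham hosts and hosts given 10, 30 or 80 cGy of silicon ions; each point is a tumour (18, 9, 10 and 8 tumours), the horizontal bar the mean and the whisker the SD. The groups overlap for every gene, and for Grhl2 and Esrp1 at least 1 tumour lies far below the rest in each group.

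Among the Snai factors, Snai1, a zinc-finger repressor of Cdh1, ran from 5.77 (median 8.71) to 10.53 in sham tumours, from 7.18 (8.66) to 9.99 at 10 cGy, from 6.88 (8.74) to 10.21 at 30 cGy and from 7.33 (10.06) to 10.81 at 80 cGy. Its level was high in most 80 cGy tumours, and the groups overlapped, with 1 low 80 cGy tumour. It averaged 9.70 ± 1.07 in the 8 tumours of 80 cGy hosts and 8.55 ± 1.22 in the 18 sham tumours (mean ± SD), and 7 of 8 tumours lay above the sham mean. Snai2, the basal-cell member of the family, ran from 6.77 (median 9.14) to 10.66 in sham tumours, from 7.51 (9.41) to 10.37 at 10 cGy, from 7.54 (8.92) to 11.32 at 30 cGy and from 6.61 (8.13) to 9.72 at 80 cGy. Its order was the reverse of that of Snai1, with the lowest median at 80 cGy, and only 3 of 8 of these tumours lay above the sham mean.

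Of the Twist factors, which are helix-loop-helix proteins of mesodermal development, Twist1 ran from 5.77 (median 7.87) to 9.07 in sham tumours, from 7.03 (7.53) to 8.74 at 10 cGy, from 6.44 (8.16) to 8.71 at 30 cGy and from 6.93 (8.62) to 8.97 at 80 cGy. Twist2 ran from 5.09 (median 6.81) to 9.45 in sham tumours, from 5.13 (6.75) to 10.11 at 10 cGy, from 5.31 (6.07) to 7.52 at 30 cGy and from 6.04 (7.65) to 10.42 at 80 cGy. The 80 cGy tumours spread over most of the range of Twist2, and the 30 cGy tumours held no high value.

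Zeb1, a repressor of Cdh1 and of the miR-200 genes, ran from 6.74 (median 8.37) to 10.56 in sham tumours, from 6.52 (7.66) to 10.38 at 10 cGy, from 7.13 (8.07) to 9.96 at 30 cGy and from 7.60 (8.70) to 10.27 at 80 cGy. Zeb2, its paralogue, ran from 7.23 (median 9.01) to 10.65 in sham tumours, from 7.74 (8.80) to 9.69 at 10 cGy, from 7.74 (8.91) to 9.94 at 30 cGy and from 7.98 (9.09) to 9.85 at 80 cGy. For Zeb2 the sham tumours alone covered the whole range of the 3 doses, at both ends.

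Among the keepers, Ovol1 ran from 4.04 (median 6.01) to 9.23 in sham tumours, from 4.27 (6.48) to 10.14 at 10 cGy, from 4.53 (5.72) to 6.77 at 30 cGy and from 4.01 (5.54) to 6.81 at 80 cGy. Values above 6.81 were thus found in the sham and 10 cGy groups only. Grhl2 ran from 4.11 (median 8.40) to 9.02 in sham tumours, from 4.70 (8.37) to 8.83 at 10 cGy, from 4.10 (8.09) to 8.71 at 30 cGy and from 3.95 (7.87) to 8.66 at 80 cGy. In every group most tumours lay near the top of the range of Grhl2 and at least 1 lay far below it.

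Esrp1 ran from 3.73 (median 9.81) to 10.91 in sham tumours, from 4.00 (10.50) to 10.75 at 10 cGy, from 4.71 (10.01) to 10.71 at 30 cGy and from 4.35 (9.79) to 10.52 at 80 cGy. Esrp2 ran from 4.52 (median 7.87) to 9.28 in sham tumours, from 4.55 (8.05) to 9.27 at 10 cGy, from 5.53 (7.98) to 9.55 at 30 cGy and from 5.08 (8.32) to 9.35 at 80 cGy. Esrp1 had at least 1 tumour far below the rest in each group, as Grhl2 did, Esrp2 was spread more evenly, and the groups overlapped throughout.

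None of the 10 regulators differed between host groups beyond the spread between tumours. With limma over all 12123 genes and Benjamini-Hochberg adjustment, 0 of 10 members had an adjusted p under 0.05 for all silicon doses against sham, 10 cGy, 30 cGy or 80 cGy against sham, the dose slope or any difference among the 4 groups. The background was 0% of all genes in each of these 6 comparisons. At an unadjusted p under 0.05 the table held 5.82% of genes for silicon against sham, 3.65% at 10 cGy, 4.45% at 30 cGy, 6.97% at 80 cGy, 7.43% for the dose slope and 4.13% for any of the 4 groups. Members past that unadjusted level were found for 80 cGy (3 of 10) and the dose slope (2 of 10), and 0 of 10 in the other comparisons. The 3 at 80 cGy were Snai1, Twist1 and Twist2, with adjusted p from 0.674 to 0.694.

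For 80 cGy against sham the log2 differences of the inducers were 1.15 ± 0.47 for Snai1 (SE), 1.14 ± 0.53 for Twist2, 0.60 ± 0.29 for Twist1, 0.49 ± 0.46 for Zeb1, -0.02 ± 0.37 for Zeb2 and -0.75 ± 0.49 for Snai2. The 6 inducers thus did not lie on 1 side of sham, since 4 differences were positive and 2 negative. Those of the keepers were -0.59 ± 0.53 for Ovol1, -0.26 ± 0.65 for Grhl2, 0.08 ± 0.92 for Esrp1 and 0.41 ± 0.60 for Esrp2, with 2 on each side. Leaving out 1 tumour at a time moved Grhl2 from -0.47 to 0.20 and Esrp1 from -0.21 to 0.70, both highest without 80 cGy replicate 3. Over all doses against sham the differences ran from -0.14 for Snai2 to 0.55 for Esrp1, with 7 of 10 positive, and no adjusted p was below 0.918.

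At the lower doses no member reached even the unadjusted level. At 10 cGy all 4 keepers had positive differences, from 0.48 ± 0.62 for Grhl2 to 0.88 ± 0.88 for Esrp1, and 3 of 6 inducers were negative. At 30 cGy Twist2 stood at -0.52 ± 0.49 and Esrp1 at 0.69 ± 0.85, and the other 5 inducers lay between -0.12 (Zeb2) and 0.19 (Twist1). The dose slope, expressed per cGy, was 0.014 ± 0.0057 for Snai1 and 0.0080 ± 0.0034 for Twist1, with adjusted p of 0.588 and 0.621. Differences of the keepers had standard errors of 0.49 to 0.92 at single doses, which limits what could be detected for them.

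**Figure D2:**
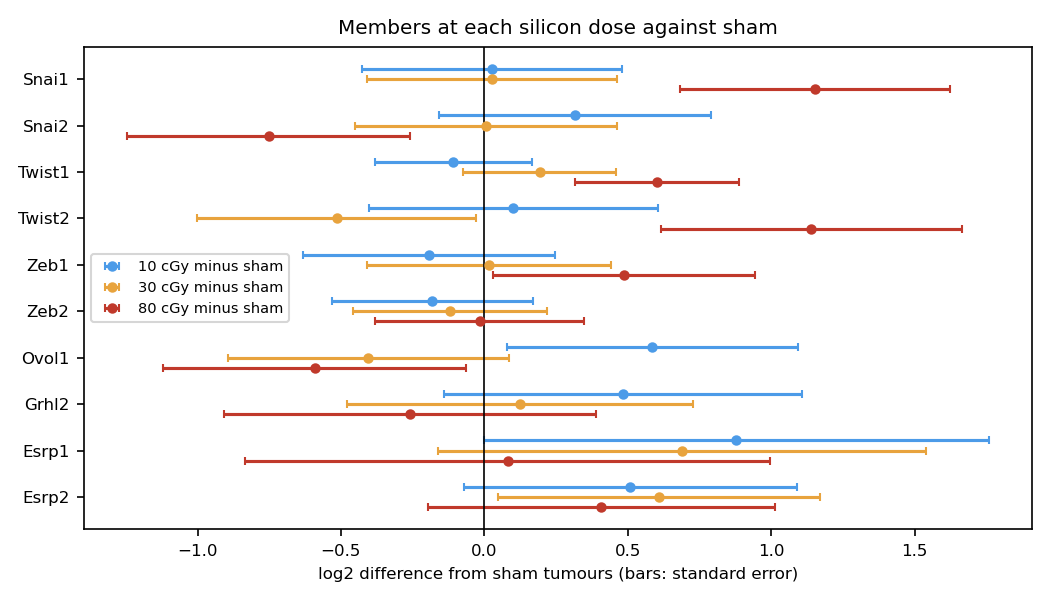
Log2 difference from sham tumours (horizontal axis) with its standard error for each of the 10 regulators at 10, 30 and 80 cGy. The 80 cGy points of Snai1, Twist1 and Twist2 lie to the right and that of Snai2 to the left of 0, and none passed the adjusted threshold.

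Lists of related genes held no call either. Among 12 tested relatives of the inducers, 11 had positive differences at 80 cGy (median 0.32, against 0.03 over all genes), among them Prrx2, a homeobox gene of mesenchyme, at 1.15 ± 0.33 with adjusted p = 0.511. Among 29 epithelial junction and keratin genes 21 were positive (median 0.20), and among 19 mesenchymal genes 15 were positive (median 0.33). 0 genes of these lists passed the adjusted test in any comparison. Over all 12123 genes, 6862 differences were positive at 80 cGy, and the counts of signs were not tested. Of 11 TGF-beta genes, which act upstream of the inducers, Smad7, a feedback inhibitor, had the smallest p at 80 cGy (0.75 ± 0.23, adjusted p = 0.639).

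Markers of other cells are given beside these differences, and their part in them was not tested. At 80 cGy 10 of 10 fibroblast markers had positive differences (median 0.51) and 0 of 8 basal markers did (median -0.92). Skeletal muscle markers were positive in 5 of 5 (median 0.98), macrophage markers in 6 of 8 (0.20), endothelial markers in 6 of 8 (0.09), luminal markers in 7 of 8 (0.23) and adipocyte markers in 1 of 6 (-0.26). None of these markers passed the adjusted test. Among all 12123 genes, 6862 had positive differences at 80 cGy, and these counts of signs were not tested. The mean deviation over the fibroblast markers, in log2 units from each gene's mean, ran from -1.17 to 1.61 in 80 cGy tumours and from -2.30 to 2.18 in sham tumours. That over the basal markers ran from -1.96 to 0.89 at 80 cGy and from -2.28 to 2.95 in sham tumours. In whole tumours, fewer cells of a type and less RNA per cell cannot be told apart.

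A second pattern in the 10 genes lay between tumours and not between host groups. Ordered by Grhl2, the tumours fell into 9 at or below 5.75 and 36 at or above 6.85, and no tumour lay in the gap of 1.10 log2 units between them. This gap was the widest that left at least 6 tumours on either side, and the groups that it forms were made from the values themselves, and they are not tested against each other. The 9 were sham replicates 5, 6, 10, 13 and 16 (5 of 18), 1 of 9 at 10 cGy (replicate 1), 1 of 10 at 30 cGy (replicate 4) and 2 of 8 at 80 cGy (replicates 3 and 8). All host groups therefore held such tumours.

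In those 9 tumours the other keepers were low as well. Esrp1 was 3.73, 4.44, 4.79, 5.09 and 6.93 in the sham tumours, 4.00 at 10 cGy, 4.71 at 30 cGy and 4.35 and 6.49 at 80 cGy, while the other 36 tumours had 8.17 to 10.91. Esrp2 ran from 4.52 to 6.28 in the 9 tumours and from 5.80 to 9.55 in the rest, with 1 of the rest at or below the highest of the 9. Ovol1 ran from 4.01 to 4.84 in the 9 and from 4.53 to 10.14 in the rest, again with 1 tumour of the rest in that range. The 9 tumours chosen by Grhl2 thus lay at the low end of the other 3 keepers too.

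The inducers other than Snai2 tended to be high in those tumours but did not stand apart as the keepers did. Zeb1 ran from 9.17 to 10.56 in the 9 tumours and from 6.52 to 9.93 in the rest, of which 5 reached the lowest of the 9. Zeb2 ran from 9.53 to 10.65, and 7 of the 36 reached that range. Snai1 ran from 8.95 to 10.81, with 16 of the rest as high, and Twist1 from 8.02 to 9.07, with 12 as high. Twist2 ran from 5.88 to 10.42, with a median of 7.10 against 6.48 in the rest, and 27 of the 36 lay at or above the lowest of the 9. Snai2 (8.06 to 9.72) showed no such shift, with medians of 9.05 and 8.92 and 24 of the 36 at or above the lowest. Snai2 in these tumours sat in the middle of its range and never among its highest values, which reached 11.32.

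**Figure D3:**
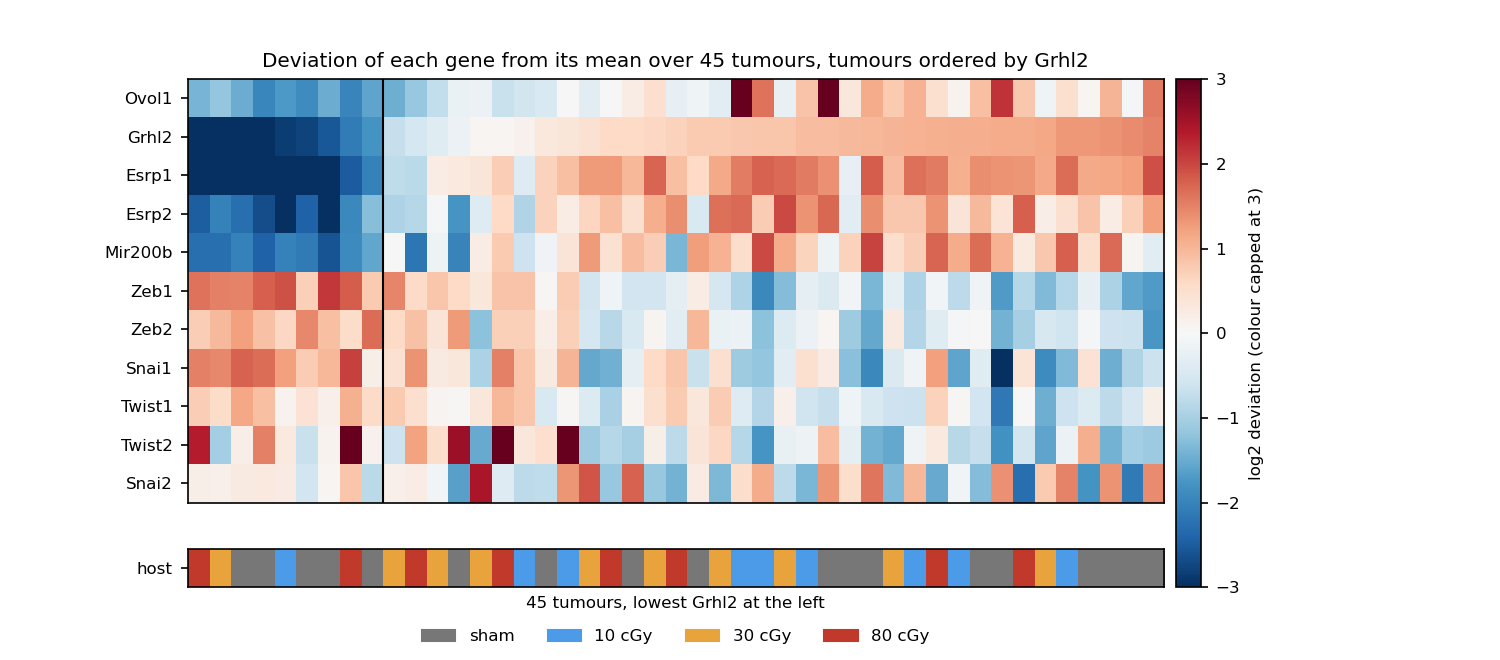
Deviation of the 10 regulators and the Mir200b hairpin from their means over 45 tumours (colour, log2 units, capped at 3), with tumours ordered by Grhl2 from left to right and the host group in the strip below; the black line marks the gap between 9 and 36 tumours. The 9 tumours at the left are low in Ovol1, Grhl2, Esrp1, Esrp2 and Mir200b and high in Zeb1, Zeb2 and Snai1, Snai2 follows no such order, and all 4 host groups occur at the left.

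The regulators were then tested against each other. For each member a limma fit across all other genes took the host group and the member's own value as terms, so that a slope is the log2 difference in a gene per log2 unit of the member, within host groups. Grhl2 was associated with 8 of the 9 other members, against a background of 35.6% of all genes (15.9% with a positive and 19.7% with a negative slope). The 3 other keepers had positive slopes, 1.38 ± 0.05 for Esrp1 (adjusted p = 2.95e-25), 0.84 ± 0.06 for Esrp2 and 0.59 ± 0.09 for Ovol1. The inducers had negative ones, -0.59 ± 0.06 for Zeb1 (adjusted p = 1.23e-10), -0.48 ± 0.08 for Snai1, -0.39 ± 0.06 for Zeb2, -0.29 ± 0.12 for Twist2 and -0.25 ± 0.06 for Twist1. Snai2 had a slope of -0.07 ± 0.12 (adjusted p = 0.691).

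Zeb1 gave the mirror image. It was associated with 8 of 9 members, against a background of 36.7% (19.1% positive, 17.5% negative). Its slopes were -1.69 ± 0.17 for Esrp1, -1.19 ± 0.12 for Grhl2, -1.12 ± 0.11 for Esrp2 and -0.86 ± 0.12 for Ovol1, and 0.78 ± 0.10 for Snai1, 0.67 ± 0.14 for Twist2, 0.64 ± 0.07 for Zeb2 and 0.40 ± 0.07 for Twist1. All 8 had an adjusted p of 0.000246 or below, and Snai2 stood at -0.02 ± 0.16.

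The remaining members gave the same signs. Snai1 was associated with 8 of 9 others (background 32.9%), Twist1 with 8 (18.1%), Zeb2 with 8 (40.1%), Ovol1 with 8 (25.3%), Esrp2 with 8 (32.8%) and Esrp1 with 7 (33.8%). Twist2 was associated with 5 (12.9%), all inducers but Snai2 together with Ovol1. Snai2 was associated with 0 of 9 members at a background of 6.72% (4.09% positive, 2.62% negative), and the unadjusted p was above 0.05 for all 9. Of 90 ordered pairs 68 were called, and in every one inducers were positive with inducers, keepers positive with keepers and inducers negative with keepers.

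Fewer of these pairs were called when tumours low in epithelial genes were set aside, and fewer with stromal markers in the fit. Without the 6 tumours below the largest gap of the luminal marker mean, 59 of 90 pairs were called, all among the 68 and with the same signs. All 6 belong to the 9 tumours below the Grhl2 gap. Sham replicates 5 and 6 and 80 cGy replicate 8, also among the 9, stayed in that fit. Within the 36 tumours above the Grhl2 gap the slopes are given without p-values, since a member's own value chose those tumours, an alternative added after seeing the data. The slope of Esrp1 on Grhl2 was 1.05 ± 0.16 there and 1.38 ± 0.05 over all 45 tumours. On Zeb1 the slopes of Grhl2 and Esrp1 were -0.49 ± 0.07 and -0.67 ± 0.10 in the 36, against -1.19 ± 0.12 and -1.69 ± 0.17 over all 45. The slope of Grhl2 on Twist1 was -0.34 ± 0.13 in the 36 and -1.29 ± 0.29 over all 45, and that of Snai1 on Twist1 was 1.06 ± 0.19 and 1.27 ± 0.16.

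With the mean deviations over the fibroblast, macrophage and endothelium markers as covariates, a fit chosen after seeing the data, 30 of 90 pairs were called, 26 of them among the 68, at backgrounds of 0.00825% to 13.1%. Zeb2 and Twist2 then had 0 called pairs. Zeb1 kept its negative slopes with Esrp1 (-1.78 ± 0.27, adjusted p = 2.34e-05), Grhl2 (-1.27 ± 0.20, adjusted p = 4.67e-05) and Esrp2 (-1.17 ± 0.19, adjusted p = 4.77e-05), and its positive slope with Twist1 (0.47 ± 0.14, adjusted p = 0.0291). Grhl2 kept Esrp1 at 1.29 ± 0.07 (adjusted p = 9.44e-17). Snai2 gained a negative slope with Grhl2 (gene on Snai2, -0.37 ± 0.13, adjusted p = 0.0474) and with Esrp2 (-0.39 ± 0.11, adjusted p = 0.0180). Fibroblast markers such as Col1a1 are also made by mesenchymal tumour cells, so fibroblasts and such tumour cells cannot be told apart in these arrays.

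As a description, correlations within the 36 tumours above the gap had Pearson's r of 0.75 and Spearman's rho of 0.60 for Grhl2 and Esrp1, and r of -0.79 and rho of -0.72 for Grhl2 and Zeb1. Without the 2 tumours farthest from the median, r was 0.61 and -0.78 for these pairs. Zeb1 and Zeb2 had r of 0.76 (rho 0.72), Snai1 and Twist1 0.73 (rho 0.66) and Snai1 and Twist2 0.72 (rho 0.75). Snai1 and Snai2 ran against each other, with r of -0.48 (rho -0.52). Within the 9 low tumours the same 2 genes had r of 0.94 (rho 0.93) and Zeb1 and Zeb2 had r of -0.86 (rho -0.78), opposite in sign to the 36. These 9 values include sham replicates 5 and 6, whose sample codes share a stem and whose profiles correlated at 0.69, so they may not be independent, and without the 2 farthest tumours the correlations were 0.81 and -0.49.

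**Figure D4:**
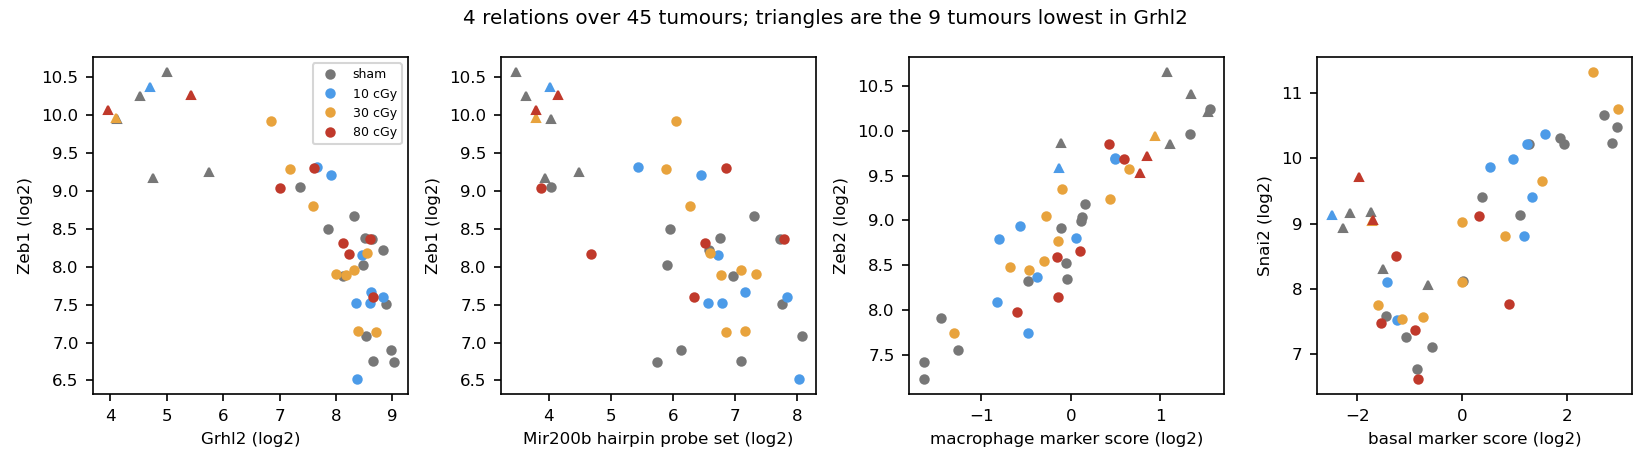
Relations across 45 tumours, in log2 units on both axes, coloured by host group; triangles are the 9 tumours below the Grhl2 gap. From left to right, Zeb1 against Grhl2, Zeb1 against the Mir200b hairpin probe set, Zeb2 against the mean deviation over macrophage markers and Snai2 against that over basal markers. In the last panel most triangles, at Snai2 of 8.94 to 9.72, lie apart from the line of the other tumours. Those of sham replicates 5 and 6 lie on or near it.

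The miR-200 hairpin genes, read here by probe sets for their primary transcripts and not for the mature RNAs printed above, lay on the keepers' side. Mir200b ran from 3.47 (median 6.05) to 8.08 in sham tumours, from 4.02 (6.74) to 8.04 at 10 cGy, from 3.80 (6.69) to 7.34 at 30 cGy and from 3.80 (5.52) to 7.80 at 80 cGy. Its slope was 0.74 ± 0.07 on Grhl2 (adjusted p = 9.86e-11) and -0.94 ± 0.13 on Zeb1 (adjusted p = 1.41e-07). Mir200a, from the same cluster on chromosome 4, had slopes of 0.21 ± 0.04 on Grhl2 and -0.32 ± 0.05 on Zeb1. Mir200c, Mir141 and Mir205 did not pass the filter on low values and were not tested, and Mir429 was not analysed here. In the 9 tumours below the gap Mir200b was 3.47 to 4.49, against 3.88 to 8.08 in the others, of which 2 lay at or below 4.49.

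Epithelial genes followed the keepers as a block. Of 29 tested junction, polarity, serine protease and keratin genes, 29 had a positive slope on Grhl2 and 29 a negative slope on Zeb1. All passed the adjusted test, against 15.9% and 17.5% of all genes. The median slopes were 0.77 and -1.04, against -0.0061 and -0.0035 over all genes. On Grhl2, Epcam, an adhesion molecule, had 1.27 ± 0.05 (adjusted p = 1.17e-23), Ap1m2, an adaptor of basolateral sorting, 1.16 ± 0.05, and St14 and Spint1, the protease matriptase and its inhibitor, 1.20 ± 0.05 and 1.10 ± 0.05. Cdh1 had 1.06 ± 0.06 (adjusted p = 1.86e-19) and Rab25, a trafficking GTPase, 1.17 ± 0.07. On Zeb1, Prss8, an epithelial serine protease, had -1.42 ± 0.12 (adjusted p = 4.59e-12), Marveld2, a tight junction protein, -1.01 ± 0.09, Rab25 -1.51 ± 0.14 and Cdh1 -1.35 ± 0.13. Crb3, a polarity protein named for its promoter above, had -0.60 ± 0.07.

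On Snai2 the same 29 genes gave 0 calls, with a median slope of -0.16, and 5 of 29 were positive. Of all genes 4.09% were called positive and 2.62% negative on Snai2, so 0 calls is near that share. Cdh1 stood at -0.10 ± 0.23 (adjusted p = 0.846). The list was drawn up from genes known to follow these regulators and overlaps in 7 genes with the luminal markers used below.

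Of 12 further factors of the epithelial state, 11 had a positive slope on Grhl2 past the test, against 15.9% of all genes, and 11 a negative slope on Zeb1, against 17.5%. Ehf, Elf3 and Elf5, Ets family factors of epithelia, had 1.31 ± 0.09, 0.93 ± 0.07 and 1.08 ± 0.11 on Grhl2, Ovol2, the paralogue of Ovol1, 0.33 ± 0.04 and Grhl1 0.62 ± 0.07. The exception was Klf4 (0.02 ± 0.09, adjusted p = 0.868). On Snai2 1 of 12 passed in each direction, against 4.09% (positive) and 2.62% (negative) of all genes. These were Trp63, the master factor of basal epithelium, at 1.12 ± 0.16 (adjusted p = 1.13e-05) and Rbm47, an RNA-binding protein, at -0.33 ± 0.11 (adjusted p = 0.0456).

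Mesenchymal genes followed Zeb1 less uniformly. Of 19 tested, 11 had a positive slope on Zeb1 past the test, against 19.1% of all genes, and 0 a negative one (median 0.30). On Grhl2 11 of the 19 had a negative slope past the test, against 19.7% of all genes (median -0.17). Itga5, the fibronectin receptor subunit, had 0.73 ± 0.08 on Zeb1 (adjusted p = 1.06e-09), Vim 0.30 ± 0.03, Pdgfrb 0.65 ± 0.08, Mmp14, a membrane protease, 0.37 ± 0.05 and Axl, a receptor kinase, 0.42 ± 0.06. The other 8 did not pass the test on Zeb1. On Snai2 Acta2 and Tagln, genes of smooth muscle and myoepithelium, had 0.36 ± 0.07 and 0.40 ± 0.10 (adjusted p = 0.000775 and 0.0101), Postn 0.21 ± 0.06 and Itgb3 -0.30 ± 0.09.

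Other inducers split. Of 12 tested, 6 were positive and 4 negative on Zeb1 past the test, against 19.1% and 17.5% of all genes. Prrx1 (0.60 ± 0.09), Prrx2 (0.46 ± 0.08) and Tcf4 (0.27 ± 0.05) were among the positive ones. Sox9 (-0.61 ± 0.13), Foxc1 (-0.54 ± 0.11), Id2 (-0.38 ± 0.08) and Sox4 (-0.35 ± 0.08), were the negative ones. On Grhl2 5 of 12 were negative and 4 positive past the test, against 19.7% and 15.9%.

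Genes related to the splicing function of Esrp1 and Esrp2 were measured only as whole transcripts, so splice forms were not read. Of 7 genes known to be spliced by the Esrp proteins, 3 were positive on Grhl2 and 4 negative on Zeb1 past the test. The shares of all genes were 15.9% and 17.5%. Grhl1, also counted among the further epithelial factors above, had the smallest p on Grhl2 (0.62 ± 0.07). The others positive past the test on Grhl2 were Ctnnd1, which encodes p120 catenin (0.13 ± 0.03), and Fgfr2 (0.48 ± 0.15). Cd44 stood at 0.10 ± 0.06 (adjusted p = 0.193). Of 9 tested splicing factors that act beside or against them, 5 were positive on Zeb1, against 19.1% of all genes, including Qk (0.19 ± 0.03, adjusted p = 3.37e-06) and Rbfox2 (0.19 ± 0.04), which favour mesenchymal exons in other systems. On Grhl2 Qk and Rbfox2 had -0.14 ± 0.02 and -0.16 ± 0.03.

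Upstream and partner genes had slopes in both directions. Of 11 TGF-beta genes 2 were positive and 2 negative on Zeb1, a share near the 19.1% and 17.5% of all genes and so no result about this list, with Tgfb1 at 0.27 ± 0.07 and Skil, a repressor of Smad proteins, at -0.21 ± 0.05. Of 13 partners, corepressors and regulators of protein stability 2 were positive and 6 negative on Zeb1, against the same 19.1% and 17.5%. Lats2, a Hippo pathway kinase, had the smallest p of that list (0.43 ± 0.05, adjusted p = 1.06e-08), and its paralogue Lats1 stood at -0.15 ± 0.04.

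Markers of most cell types in the tumour were associated with the regulators, and the part of those cells in the associations above was not tested. The fit with stromal marker means cannot test it for fibroblasts, since mesenchymal tumour cells also make fibroblast markers. The macrophage and endothelium means entered that fit together with the fibroblast mean, so their part was not separated. On Zeb1, 9 of 10 fibroblast markers, 8 of 8 macrophage markers, 7 of 8 endothelial markers and 3 of 3 tested lymphoid and pan-leukocyte markers were positive past the test, and 8 of 8 luminal and 6 of 8 basal markers were negative. Skeletal muscle markers gave 0 of 5 on Zeb1 and on Grhl2, and adipocyte markers 2 of 6 positive on Zeb1 and 1 of 6 negative on Grhl2. On Grhl2, 3 of 10 fibroblast, 7 of 8 macrophage and 7 of 8 endothelial markers were negative, and 8 of 8 luminal and 6 of 8 basal markers positive. Of all genes, 19.1% were positive and 17.5% negative on Zeb1, and 15.9% positive and 19.7% negative on Grhl2. The counts of adipocyte markers, and that of fibroblast markers on Grhl2, lay near these shares and are no result about those markers. In the 9 tumours below the Grhl2 gap the macrophage mean deviation ran from -0.13 to 1.54, against -1.65 to 1.55 in the rest. The fibroblast mean ran from -0.43 to 1.61, against -2.30 to 2.18, and the endothelial mean from -0.65 to 2.76, against -1.46 to 0.96. The top of the endothelial range rests on 2 tumours, 10 cGy replicate 1 (2.76) and sham replicate 16 (2.70), and the other 7 ran from -0.65 to 0.63. Those 2 tumours were the lowest of the 9 in the macrophage mean (-0.13 and -0.11).

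The defining markers of mammary epithelium were measured as follows. Krt8 ran from 7.01 to 13.36, Krt18 from 6.38 to 12.90, Epcam from 4.80 to 11.97 and Krt5 from 4.93 to 13.32 over the 45 tumours. The luminal mean deviation ran from -4.24 to -1.07 in the 9 tumours below the Grhl2 gap, against -1.50 to 1.57 in the rest, and the basal mean from -2.49 to -0.65, against -1.60 to 2.97. The 9 tumours, all labelled mammary tumours, were thus at the low end for both kinds of epithelial marker.

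Each regulator had a different set of nearest genes, taken as the 5 highest Pearson correlations over 45 tumours with host group means removed. Grhl2 was nearest to Esrp1 (0.97), Epcam, Ap1m2, St14 and Spint1, and Esrp1 to Epcam (0.98), Grhl2, Cdh1, Spint1 and Rab25. Esrp2 was nearest to Rab25 (0.96), Nectin4, Grb7, Cdh1 and Cnksr1, and Ovol1 to Ttc22 (0.86), Zfp750, Pkp3, Nectin4 and Fam83b. Most are known in epithelia. With group means removed, within the 36 tumours above the gap the correlation of Grhl2 with Esrp1, again with group means removed, was 0.77.

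Zeb2 was nearest to Itgb2 (0.94), Tlr8, Fcgr2b, Ms4a6d and Cd53, which are genes of myeloid cells and leukocytes. Its correlation with the macrophage mean was 0.90 within the 36 tumours (rho 0.87). Zeb1 was nearest to Cdc42ep2 (0.92), Cavin1, Cd34, Parvb and Fli1, of which Cd34 and Fli1 are known in endothelium, and within the 36 it had r of 0.77 with the endothelial mean (rho 0.80). Twist2 was nearest to Bdkrb1 (0.82), Srpx2, Hhipl1, Cpxm1 and Tspan11 and had r of 0.77 with the fibroblast mean (rho 0.79). Snai1 was nearest to B3gnt9 (0.88), Timp1, Hic1, Col6a2 and Adam12, and Twist1 to Snai1 (0.77), Pcolce, Zcchc24, Mrc2 and Cpne2.

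Snai2 stood with basal genes. It was nearest to Dennd2c (0.84), Btbd11, Pard6g, Porcn and D16Ertd472e. Of 8 basal markers 6 were positive on Snai2 past the test (median slope 0.85), against 4.09% of all genes, with Krt5 at 1.41 ± 0.29 (adjusted p = 0.00135), Cnn1 at 0.91 ± 0.21 and Myh11, a smooth muscle myosin, at 0.85 ± 0.17. The remaining Krt17 and Oxtr stood at 0.81 ± 0.29 and 0.54 ± 0.25 (adjusted p = 0.0779 and 0.207). Fgfr2 had 0.89 ± 0.18 (adjusted p = 0.00116). Within the 36 tumours Snai2 had r of 0.88 with the basal mean (rho 0.87, 0.88 without the 2 farthest tumours) and 0.75 with Mir205 (rho 0.78), which is itself known in basal cells. Most of the 9 tumours below the Grhl2 gap departed from that relation, with Snai2 at 8.94 to 9.72 and basal means of -2.49 to -1.69. Sham replicate 6 (Snai2 8.06, basal mean -0.65) lay with the other tumours. Sham replicate 5 (Snai2 8.30, basal mean -1.52) lay near them.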

How the data were processed

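The authors deposited a table of log2 expression values of 35556 probe sets in 45 tumours, made with RMA in oligo per the submitters' processing notes; their versions were not found in these sources. Values ran from 1.34 to 14.06 and were used as deposited. 21218 probe sets carry 1 gene symbol, and the one with the highest mean stood for each of 18820 genes. Differences and slopes were fitted with limma 3.58.1 in R 4.3.3 (lmFit, eBayes) over 12123 genes, with Benjamini-Hochberg adjustment and a threshold of 0.05, after tests on simulated data. Association fits had the host group and the member's value as terms. Group fits used all 4 groups. The number of arrays limits the precision.

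Members and gene lists were chosen with earlier results of these data known. All members were named, up to 6 genes of a list by smallest p in the comparison described, and the 5 nearest genes of each member; exceptions to a count were named after their values were seen. Mean deviations over marker lists use each gene's mean over 45 tumours. Replicate numbers did not pair tumours: 52 pairs of equal number in different groups had a median profile correlation of -0.071 and 676 pairs of unequal number -0.0176. Sequences are from RefSeq (GRCm38.p6). Alternatives covered the filter, probe set choice, array weights, variance model, blocks, covariates and omitted tumours.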

Additional observations from a re-analysis of the deposited data

Results flagged for a closer look

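In 30 sets of 1 gene in 1 dose group, the lowest or highest tumour stood far from its nearest neighbour in 6, where chance gives about 1 in 20. Snai1 was 7.33 in 80 cGy replicate 7, against 9.19 in the nearest tumour of its group. Twist2 was 10.11 in 10 cGy replicate 8, against 7.24 in the nearest. Grhl2 was 4.70 in 10 cGy replicate 1 and 4.10 in 30 cGy replicate 4, and Esrp1 was 4.00 and 4.71 in the same tumours. These 2 tumours are among the 9 below the Grhl2 gap.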

How the results depend on the processing

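No member passed the adjusted test between host groups in any of 620 recomputed member differences, and 51 of them changed sign. With array weights, differences that changed sign were -0.12 for Zeb1 and 0.12 for Ovol1 over all doses, -0.10 for Snai1 at 10 cGy, -0.10 for Snai1, -0.0214 for Snai2 and -0.27 for Zeb1 at 30 cGy, and 0.29 for Grhl2 at 80 cGy. With a replicate block they were 0.27 for Snai2 over all doses, 0.0558 for Twist1 and -0.0854 for Twist2 at 10 cGy, and -0.11 for Esrp1 at 80 cGy. With the sample code stem as a random block they were 0.0272 for Zeb2 and -0.0136 for Esrp1 at 80 cGy. Without 7 tumours high in muscle or fat markers they were 0.13 for Ovol1 over all doses, and -0.00226 for Snai1, -0.0336 for Snai2 and -0.0864 for Zeb1 at 30 cGy. With the component of unnamed probe sets they were -0.0137 for Snai1 at 10 cGy and 0.10 for Zeb2 at 80 cGy. With the stromal marker means they were 0.027 for Zeb2 and -0.24 for Grhl2 over all doses, 0.0123 for Twist1, 0.14 for Zeb1, 0.14 for Zeb2 and -0.0517 for Grhl2 at 10 cGy, -0.0799 for Snai2, 0.13 for Zeb2 and -0.30 for Grhl2 at 30 cGy, and -0.13 for Esrp1 at 80 cGy. Leaving out 1 tumour at a time at 80 cGy gave -0.14 to 0.13 for Zeb2, -0.47 to 0.20 for Grhl2 and -0.21 to 0.70 for Esrp1.

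Among all genes, array weights gave 30 calls at 80 cGy, 25 for the dose slope and 2 for any of 4 groups, and the replicate block 6 over all doses and 1 at 80 cGy, against 0 otherwise; no member was among them. Of 90 ordered member pairs the replicate block called 62 and the code stem block 66, against 68. With stromal marker means the members associated numbered 3 for Snai1, 2 for Snai2, 4 for Twist1, 0 for Twist2, 4 for Zeb1, 0 for Zeb2, 1 for Ovol1 and 5 for Esrp2. Above the Grhl2 gap, where a member's value chose the tumours and the calls are no test, they numbered 4 for Snai1, 1 for Twist1, 3 for Ovol1 and 5 for Esrp2, and above the luminal marker gap 5 for Esrp2. The causes were not tested. Probe sets near the table median of 5.67, as for Ovol1 and the hairpins, are measured least well.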
